A study of Yarrowia lipolytica with 11 samples.

Results

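The acyl/aryl-CoA ligase family of the oleaginous yeast Yarrowia lipolytica comprises AAL1 (YALI0_E11979g), AAL2 (YALI0_E12859g), AAL3 (YALI0_D17314g), AAL4 (YALI0_E20405g), AAL5 (YALI0_B07755g), AAL6 (YALI0_C09284g), AAL7 (YALI0_E12419g), AAL8 (YALI0_A14234g), AAL9 (YALI0_A15103g) and AAL10 (YALI0_E05951g). These 10 genes were taken by locus tag from a table of 7135 genes, where all 10 were present. All 10 also passed the filter on low counts, which kept 6301 genes. The pairing of names and tags follows published assignments, which no table used here could test.

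Enzymes of this family join a carboxylic acid to coenzyme A at the expense of ATP, through an acyl-adenylate, and are related to the coumarate-CoA ligases of plants. A free fatty acid must be activated in this way before it can enter beta-oxidation, which in yeasts takes place in peroxisomes. In Y. lipolytica the family has been tied to peroxisomal fatty acid activation, beside the separate fatty acyl-CoA synthetase FAA1.

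RNA-seq libraries came from cultures of separate colonies in YPC medium, collected in exponential phase. The HA-treated mutant (3 libraries) and the untreated mutant (2 libraries) carried a pex10 deletion together with a plasmid that overexpresses DGA1, and were grown in the presence and in the absence of 1 g/L hexanoic acid, a medium-chain fatty acid. The HA-treated wild type (3 libraries) and the untreated wild type (3 libraries) were grown in the same medium with and without that acid. PEX10 encodes a peroxin needed to assemble peroxisomes and DGA1 a diacylglycerol acyltransferase, so a strain difference cannot be assigned to the deletion or to the plasmid, whose effects cannot be told apart here. Whether the wild type carried an empty plasmid is not stated in the labels.

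Library totals ran from 9988288 to 17519857 counts, and within-group correlations of log2 CPM from 0.956 to 0.990. PEX10 (YALI0_C01023g) stood at 5.62, 8.04 and 5.33 CPM in the HA-treated mutant and 5.01 and 7.35 CPM in the untreated mutant, against 18.6, 10.7 and 12.8 CPM in the HA-treated wild type and 12.3, 20.5 and 13.7 CPM in the untreated wild type. Mutant libraries therefore lay below all wild-type libraries, although they held 66 to 123 reads assigned to the deleted gene. DGA1 (YALI0_E32769g) ranged from 3012 to 7807 CPM over the 5 mutant libraries, against 110.9 to 227.3 CPM over the 6 wild-type libraries. Levels are CPM (reads of a gene relative to the TMM-scaled library total), given per gene and not per length, so that levels of different genes are not ranked.

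**Figure D1:**
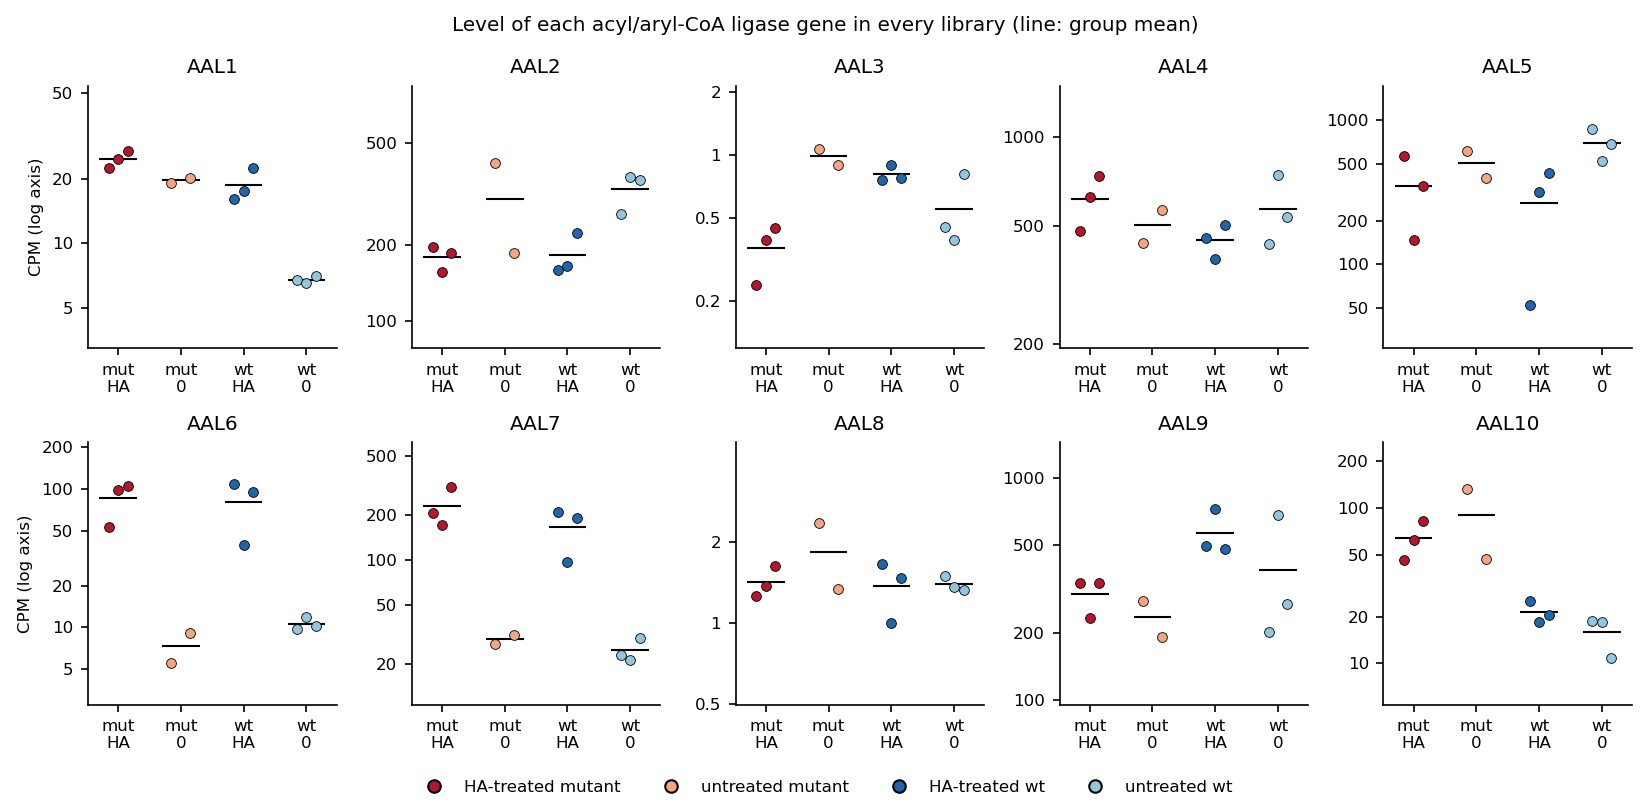
CPM of each of the 10 genes (log axis, own scale per panel) in every library of the HA-treated mutant (mut HA), untreated mutant (mut 0), HA-treated wild type (wt HA) and untreated wild type (wt 0). Points are libraries and lines are group means. AAL6 and AAL7 are higher in every acid-treated library than in every untreated library, and AAL10 is higher in every mutant library than in every wild-type library.

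Hexanoic acid raised AAL6 and AAL7 in both strains. AAL6 averaged 85.4 ± 28.3 CPM (SD, n = 3) in the HA-treated mutant and 7.34 ± 2.54 CPM (n = 2) in the untreated mutant, a fold of 11.6. In the wild type it averaged 80.6 ± 36.5 CPM with the acid and 10.6 ± 1.19 CPM without it (n = 3 each), a fold of 7.61. AAL7 averaged 230.0 ± 71.3 CPM (n = 3) in the HA-treated mutant and 29.4 ± 3.06 CPM (n = 2) in the untreated mutant, a fold of 7.83. In the wild type AAL7 averaged 166.9 ± 61.2 CPM with the acid and 24.8 ± 4.63 CPM without it (n = 3 each), a fold of 6.72.

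The AAL6 libraries did not overlap between conditions. AAL6 stood at 52.9, 98.7 and 104.6 CPM in the HA-treated mutant, against 5.54 and 9.14 CPM in the untreated mutant. It stood at 108.5, 39.3 and 94.1 CPM in the HA-treated wild type, against 9.68, 11.9 and 10.1 CPM in the untreated wild type. The second HA-treated wild-type library, which also had the smallest total of the series, was the lowest treated library for AAL6. The log2 change with acid was 3.53 ± 0.48 (SE) in mutant cells and 2.93 ± 0.39 in wild-type cells. The adjusted p was 0.000811 for the mutant and 6.16e-05 for the wild type (edgeR quasi-likelihood test, Benjamini-Hochberg over all genes tested).

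For AAL7 the separation between conditions was as complete. AAL7 stood at 206.2, 173.6 and 310.2 CPM in the HA-treated mutant, against 27.2 and 31.5 CPM in the untreated mutant. It stood at 210.8, 97.0 and 193.0 CPM in the HA-treated wild type, against 23.0, 21.4 and 30.1 CPM in the untreated wild type. The lowest treated library was again the second HA-treated wild-type library. The log2 change was 2.97 ± 0.37 in mutant cells (adjusted p = 0.000546, edgeR) and 2.75 ± 0.31 in wild-type cells (adjusted p = 2.00e-05, edgeR). Without the second HA-treated wild-type library the wild-type log2 changes were 3.26 for AAL6 and 3.02 for AAL7.

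The test of the difference between the strains' responses, mutant minus wild type, did not call either gene. For AAL6 it was 0.60 ± 0.56 on the log2 scale, with a 95% interval from −0.62 to 1.83 (adjusted p = 0.456, edgeR). For AAL7 it was 0.22 ± 0.44, with an interval from −0.75 to 1.19 (adjusted p = 0.756, edgeR). These intervals leave room for a response that is larger or smaller in the mutant, so the data do not show that both strains respond alike.

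**Figure D2:**
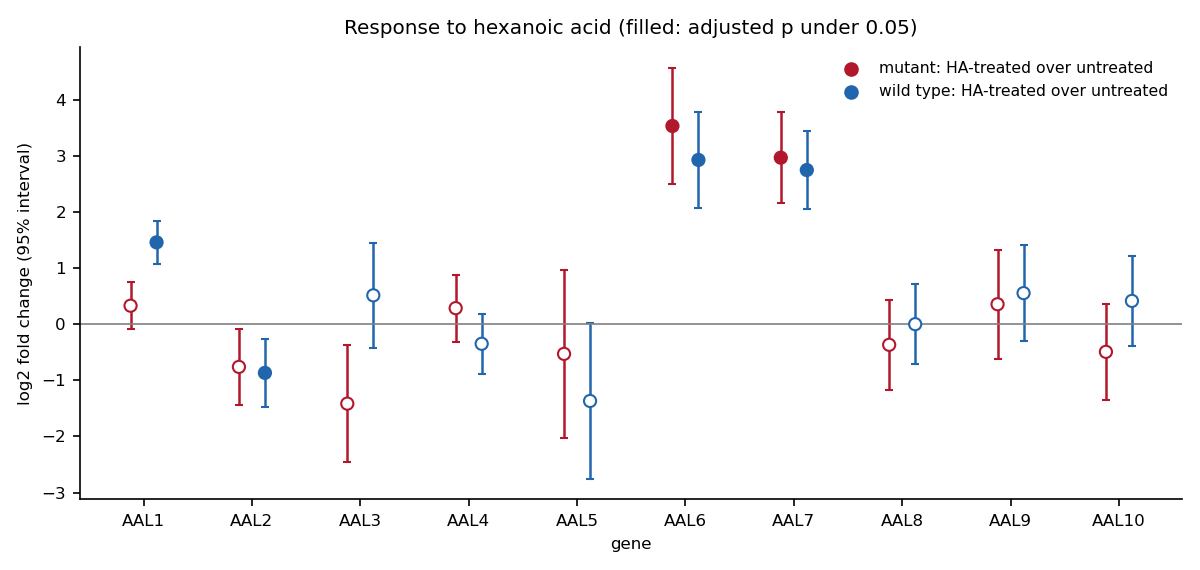
Log2 fold change with hexanoic acid for each of the 10 genes, for the mutant (red) and the wild type (blue), with 95% intervals from the edgeR fit. Filled points passed an adjusted p of 0.05. AAL6 and AAL7 lie near 3 in both strains. In the wild type AAL1 is also called above 0 and AAL2 below 0.

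In the mutant these 2 genes were the only members called, both higher, where 17.6% of the 6301 genes were called in either direction, 7.95% higher and 9.70% lower. In the wild type 4 of 10 members were called, 3 higher (AAL1, AAL6, AAL7) and 1 lower (AAL2), where 56.5% of all genes were called in either direction, 28.5% higher and 28.0% lower. In either direction the family's count was near the share of all genes in mutant cells and below it in wild-type cells. Neither count was tested against that share. At an unadjusted p under 0.05 there were 4 members in each strain, beside 1947 of the 6301 genes for mutant cells and 3864 for wild-type cells. Treated and untreated libraries did not overlap for 4 of the 10 members in the mutant, where the share over all genes was 49.2%, and for 5 of the 10 in wild-type cells, where it was 62.9%. The median log2 change over the 10 members was −0.04 in mutant cells and 0.47 in wild-type cells, beside −0.01 over all genes in each strain.

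AAL1 was already high in the untreated mutant and rose with the acid in the wild type. In the mutant AAL1 stood at 22.4, 24.7 and 26.9 CPM with the acid, against 19.0 and 20.2 CPM without it. These mutant groups did not overlap, but the log2 change of 0.33 ± 0.19 was not called (interval from −0.09 to 0.75, adjusted p = 0.268, edgeR). AAL1 stood at 16.1, 17.5 and 22.4 CPM in the HA-treated wild type, against 6.76, 6.53 and 7.09 CPM in the untreated wild type. The wild-type groups did not overlap either, and the log2 change was 1.46 ± 0.18 (adjusted p = 3.07e-05, edgeR). Without acid the strain difference was 1.53 ± 0.19 on the log2 scale, 2.88-fold higher in the mutant (adjusted p = 0.000112, edgeR). With acid it was 0.40 ± 0.17, with an interval from 0.03 to 0.77, and was not called (adjusted p = 0.156, edgeR).

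The acid response of AAL1 was smaller in the mutant than in the wild type. The difference was −1.13 ± 0.26 on the log2 scale (interval from −1.69 to −0.57, adjusted p = 0.00846, edgeR). Both untreated mutant libraries lay within the range of the HA-treated wild-type libraries. The wild-type acid comparison and the comparison of the strains without acid share the untreated wild-type libraries. Each of the 3 calls on AAL1 held in every alternative run.

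AAL10 was higher in the mutant in both conditions. It stood at 46.0, 62.0 and 82.3 CPM in the HA-treated mutant and 131.5 and 47.0 CPM in the untreated mutant, against 25.0, 18.4 and 20.5 CPM in the HA-treated wild type and 18.7, 18.5 and 10.9 CPM in the untreated wild type. All 5 mutant libraries lay above all 6 wild-type libraries. The strain difference was 2.48 ± 0.40 without acid (5.57-fold, adjusted p = 0.000659, edgeR) and 1.57 ± 0.36 with acid (2.97-fold, adjusted p = 0.0224, edgeR). The untreated mutant libraries differed 2.80-fold from each other, and the log2 difference without acid was 1.56 without the first of them and 3.04 without the second, called both times. The call with acid was lost without HA-treated mutant replicates 2 (1.59) or 3 (1.34) and without HA-treated wild-type replicates 2 (1.48) or 3 (1.54), where the adjusted p lay between 0.0677 and 0.0953 (edgeR).

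The acid itself left AAL10 uncalled in both strains. The log2 change was −0.49 ± 0.39 in mutant cells and 0.42 ± 0.36 in wild-type cells, with intervals from −1.35 to 0.36 and from −0.38 to 1.21. In the mutant its sign turned to 0.43 without untreated mutant replicate 1. The difference between the responses was −0.91 ± 0.53 and was not called (adjusted p = 0.232, edgeR). It was called without untreated mutant replicate 2 (−1.47, adjusted p = 0.0417, edgeR).

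**Figure D3:**
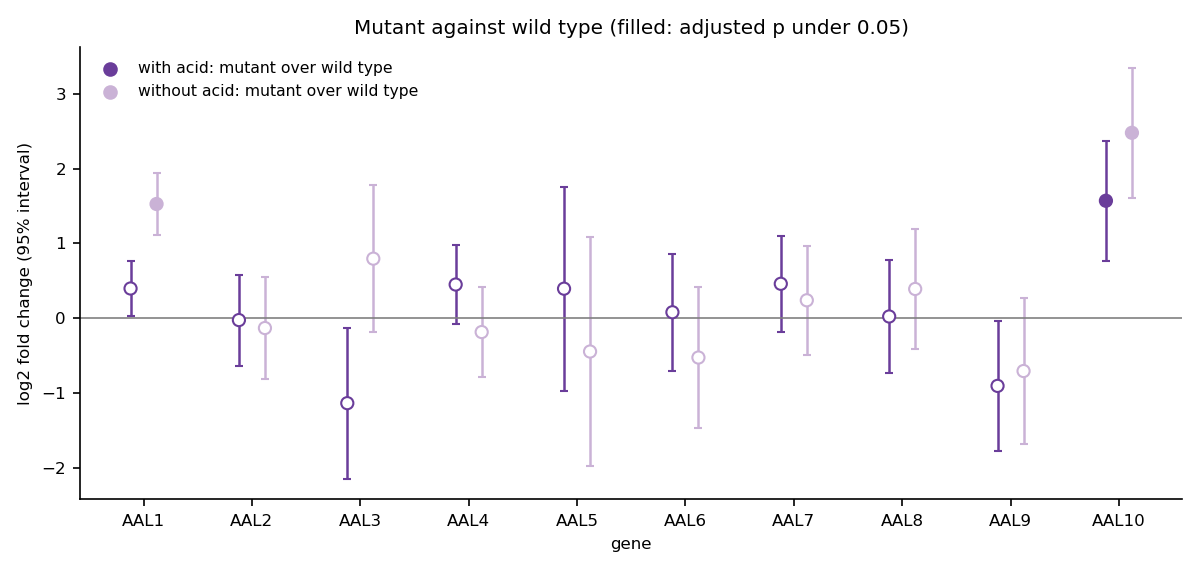
Log2 fold change of the mutant over the wild type for each of the 10 genes, with acid (dark) and without acid (light), with 95% intervals from the edgeR fit. Filled points passed an adjusted p of 0.05. AAL10 lies above 0 in both conditions, and AAL1 is called without acid.

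Without acid 2 of 10 members differed between the strains, AAL1 and AAL10, both higher in the mutant, where 38.1% of all genes were called in either direction, 22.8% higher and 15.3% lower. With acid 1 of 10 differed, AAL10, where 10.7% of all genes were called, 315 genes higher and 358, or 5.68%, lower. Libraries of the strains did not overlap for 4 of 10 members without acid and 3 with acid, where the shares of all genes were 59.8% and 37.5%. The median log2 strain difference over the members was 0.06 without acid and 0.24 with acid, beside −0.03 and 0.03 over all genes. With total counts as the only scaling, the median of all genes with acid was 0.16, and the split of calls over all genes was then 422 higher and 255 lower, where TMM scaling gave 315 higher and 358 lower. The call on AAL10 held under that scaling.

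AAL2 fell with the acid in the wild type and was not called in the mutant. In the mutant AAL2 stood at 196.2, 156.5 and 184.8 CPM with the acid, against 420.7 and 186.1 CPM without it. The second untreated mutant library lay within the treated range and the first far above it. The log2 change of −0.76 ± 0.31 was not called (adjusted p = 0.115, edgeR), but it was called without untreated mutant replicate 2 (−1.23, adjusted p = 0.00990, edgeR). Without untreated mutant replicate 1 it was −0.055 (adjusted p = 0.940, edgeR).

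In wild-type cells AAL2 stood at 159.4, 165.2 and 221.7 CPM in the HA-treated wild type, against 265.0, 369.9 and 360.8 CPM in the untreated wild type. The groups did not overlap, and the log2 change was −0.87 ± 0.28 (adjusted p = 0.0200, edgeR). The call was lost without HA-treated wild-type replicates 1 (−0.78) or 2 (−0.80) and without untreated wild-type replicates 2 (−0.78) or 3 (−0.80), where the adjusted p lay between 0.0550 and 0.0680 (edgeR). The difference between the strains' responses was 0.11 ± 0.42 (adjusted p = 0.880, edgeR), and its sign turned without untreated mutant replicate 2 (−0.37). Between the strains without acid the difference was −0.13 ± 0.31 (adjusted p = 0.766, edgeR). It was called without untreated mutant replicate 1 (−0.83, adjusted p = 0.0491, edgeR) and had the opposite sign without replicate 2 (0.34).

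AAL5 and AAL9 varied widely among libraries of 1 group, and no comparison called either of them. AAL5 stood at 559.7, 146.8 and 347.6 CPM in the HA-treated mutant and 614.9 and 397.8 CPM in the untreated mutant. In the wild type it stood at 52.6, 315.4 and 433.1 CPM with the acid, against 860.6, 517.8 and 687.3 CPM without it. The wild-type groups did not overlap, and the HA-treated wild-type libraries spanned 8.24-fold. The log2 change of −1.37 ± 0.63 was not called in the wild type (interval from −2.75 to 0.02, adjusted p = 0.0847, edgeR). It was called with total counts only (−1.54, adjusted p = 0.0402, edgeR), where the median of all genes was −0.11, and without HA-treated wild-type replicate 3 (−1.91, adjusted p = 0.0469, edgeR). Without HA-treated wild-type replicate 1, the lowest library, it was −0.88 (adjusted p = 0.145, edgeR). In the mutant the change was −0.53 ± 0.69.

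AAL9 stood at 336.8, 233.6 and 336.5 CPM in the HA-treated mutant and 280.3 and 191.8 CPM in the untreated mutant. In the wild type it stood at 493.7, 722.2 and 479.2 CPM with the acid, against 203.4, 678.6 and 271.3 CPM without it. The second untreated wild-type library lay within the treated range, 3.34-fold above the lowest of its group. The log2 change with acid was 0.56 ± 0.39 in the wild type (adjusted p = 0.249, edgeR), and it was called at 1.25 without that library (adjusted p = 0.00427, edgeR). With acid all HA-treated mutant libraries lay below all HA-treated wild-type libraries, and the strain difference was −0.90 ± 0.40 (interval from −1.77 to −0.04, adjusted p = 0.165, edgeR). That difference was called in a fit to only the groups compared (adjusted p = 0.0431, edgeR).

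AAL4 was called in no comparison. It stood at 482.0, 626.7 and 737.4 CPM in the HA-treated mutant and 440.0 and 568.7 CPM in the untreated mutant, against 456.7, 388.1 and 505.1 CPM in the HA-treated wild type and 437.1, 741.9 and 539.0 CPM in the untreated wild type. Every pair of groups compared overlapped. Its log2 change with acid was 0.29 ± 0.27 in mutant cells (interval from −0.31 to 0.89) and −0.35 ± 0.24 in wild-type cells (interval from −0.88 to 0.18). The difference of the mutant from the wild type was −0.18 ± 0.27 without acid and 0.45 ± 0.24 with acid.

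AAL3 and AAL8 had the lowest counts of the family. AAL3 had 3, 6 and 6 counts in the HA-treated mutant and 14 and 14 in the untreated mutant, against 10, 8 and 10 in the HA-treated wild type and 6, 6 and 14 in the untreated wild type. Its acid response was lower in the mutant than in the wild type, with a difference of −1.93 ± 0.64 on the log2 scale (adjusted p = 0.0464, edgeR). That call was lost in 15 of 17 alternatives, where the adjusted p reached 0.106 (edgeR). Within a strain AAL3 was not called, with a log2 change of −1.41 ± 0.48 in mutant cells (adjusted p = 0.0638, edgeR) and 0.52 ± 0.43 in wild-type cells (adjusted p = 0.323, edgeR). AAL8 had 9 to 31 counts per library, and no comparison called it. Its log2 change with acid was −0.37 ± 0.37 in mutant cells and 0.00 ± 0.33 in wild-type cells. The intervals ran from −1.17 to 0.44 in mutant cells and from −0.71 to 0.71 in wild-type cells.

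Of the 10 members, 2 were called for the difference between the responses of the strains, AAL1 and AAL3, both lower, where 25.5% of all genes were called, 630 genes higher and 974, or 15.5%, lower. AAL4, AAL5, AAL8 and AAL9 were called in none of the 5 comparisons. Reads of near-identical copies could be split among members, and overlapping or antisense genes could add reads, since the labels do not give the strand setting of the counting.

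The summed level of the family overlapped between all groups, while the shares of AAL6 and AAL7 in it did not overlap between conditions. The 10 genes summed to 1853 ± 307 CPM in the HA-treated mutant (n = 3), 1699 ± 345 CPM in the untreated mutant (n = 2), 1754 ± 223 CPM in the HA-treated wild type and 2038 ± 290 CPM in the untreated wild type (n = 3 each). Single libraries ran from 1455 CPM to 2368 CPM. AAL6 and AAL7 together took 13.6%, 17.9% and 19.5% of the family's reads in the HA-treated mutant, against 1.69% and 2.80% in the untreated mutant. In the wild type they took 20.9%, 7.72% and 14.6% with the acid, against 1.79%, 1.41% and 2.10% without it. AAL5 took 18.4 ± 10.1% in the HA-treated mutant, 29.5 ± 3.05% in the untreated mutant, 14.4 ± 9.73% in the HA-treated wild type and 34.9 ± 12.7% in the untreated wild type. AAL10 took 2.42% to 4.07% in the HA-treated mutant and 3.23% to 6.77% in the untreated mutant, against 1.04% to 1.64% in the HA-treated wild type and 0.568% to 1.02% in the untreated wild type. These are shares of reads, and a longer transcript gives more reads.

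**Figure D4:**
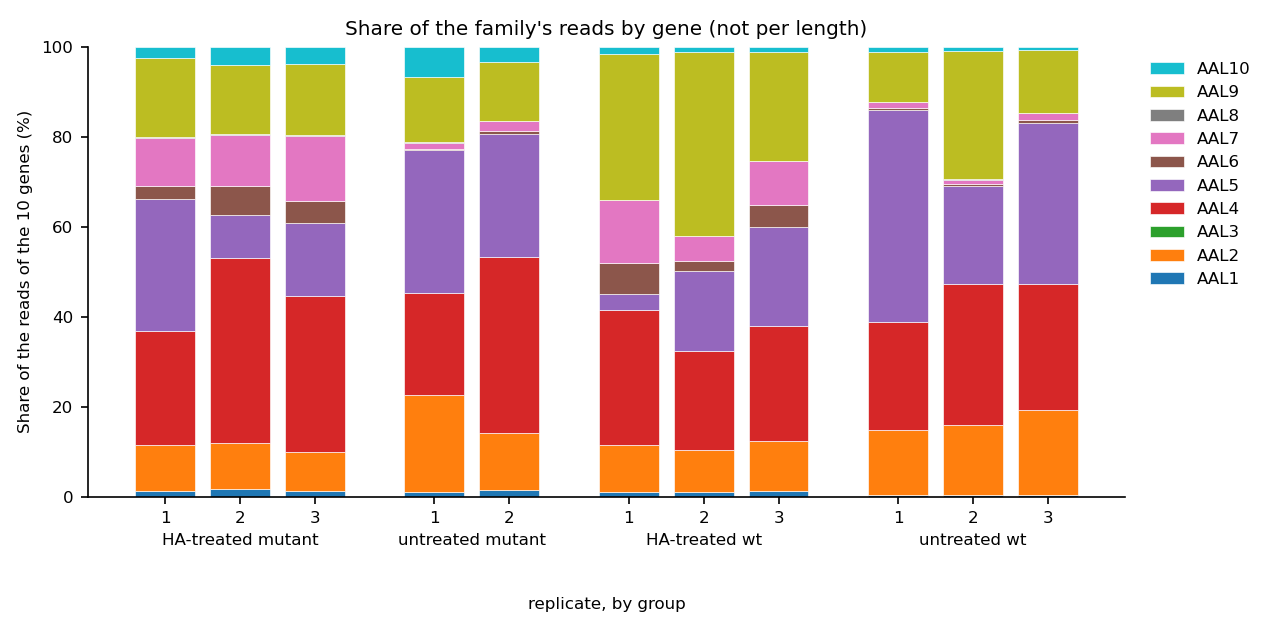
Share of the reads of the 10 genes that fell on each gene (percent, not per length), 1 bar per library, by group. The share of AAL6 and AAL7 together is 7.72% to 20.9% in the 6 acid-treated libraries and 1.41% to 2.80% in the 5 untreated libraries.

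Over the 11 libraries the members did not move as 1 unit. Of 45 pairs of members, 22 had a positive and 23 a negative Pearson correlation of log2 CPM, with a median of −0.01. The pair most alike was AAL6 and AAL7, at r = 0.961, or 0.693 after each group's mean was removed. The next pair was AAL1 and AAL7 at 0.743. The pair least alike was AAL2 and AAL6 at −0.764. These values describe libraries that share the group differences given above.

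Outside the family, the tested gene most like AAL7 was YALI0_B00462g (r = 0.981 over 11 libraries), which was also the second most like AAL6 (0.958). After group means were removed its values were 0.865 with AAL7 and 0.711 with AAL6. AAL1 was most like YALI0_F07128g (0.981), and the value was −0.254 after group means were removed. AAL5 was most like YALI0_D11176g at 0.980, with 0.988 after group means were removed. All partner genes named in this paragraph were picked for their high correlation in these same libraries. Their values are therefore no independent support for a shared pattern or spread. AAL2 was most like YALI0_B02398g (0.958, or 0.913 within groups). No names or functions of these 4 tags were used here.

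The steps around acyl-CoA formation were read from 14 further genes, all of them tested. In the mutant 8 of 14 rose with the acid and none fell, where 7.95% of all genes were called higher and 9.70% lower. Of the 14, 9 rose and 2 fell in wild-type cells, where 28.5% of all genes were called higher and 28.0% lower. Their median log2 change was 0.94 in mutant cells and 0.95 in wild-type cells, beside −0.01 over all genes in each strain. Among genes of activation outside the family, FAA1, the fatty acyl-CoA synthetase, stood at 1122, 987.5 and 1082 CPM in the HA-treated mutant, against 1329 and 1236 CPM in the untreated mutant, a log2 change of −0.27 ± 0.22 that was not called. FAA1 fell in the wild type, with a log2 change of −0.57 ± 0.20 (adjusted p = 0.0289, edgeR). FAT1, of the fatty acid transport protein family, rose by 1.49 ± 0.31 in mutant cells (adjusted p = 0.00856, edgeR). Its change was 0.57 ± 0.27 in wild-type cells (adjusted p = 0.0881, edgeR). Without acid FAT1 was lower in the mutant than in the wild type, at −1.68 ± 0.32 (adjusted p = 0.00177, edgeR). With acid the strain difference was −0.76 ± 0.27 (adjusted p = 0.0937, edgeR). FAT1 averaged 185.2 CPM in the HA-treated mutant and 211.3 CPM in the untreated wild type.

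Of PXA1, PXA2, ANT1 and PEX5, genes of entry into the peroxisome, PEX5 alone was called for the difference between the strains' responses. Over all genes 25.5% were called for that difference. PXA1, a subunit of the peroxisomal acyl-CoA transporter, was at 0.60 ± 0.22 on the log2 scale in the mutant (adjusted p = 0.0806, edgeR) and rose by 0.52 ± 0.19 in the wild type (adjusted p = 0.0360, edgeR), with a response difference of 0.08 ± 0.29 (adjusted p = 0.870, edgeR). PXA2, the other subunit, was at 0.33 ± 0.21 in the mutant (adjusted p = 0.304, edgeR) and rose by 1.11 ± 0.18 in the wild type (adjusted p = 0.000318, edgeR). Its response difference was −0.78 ± 0.27 (adjusted p = 0.0556, edgeR). ANT1, the peroxisomal adenine nucleotide carrier that brings ATP for activation inside the organelle, rose by 1.48 ± 0.33 in the mutant (adjusted p = 0.0106, edgeR). It was at 0.55 ± 0.28 in the wild type (adjusted p = 0.112, edgeR), with a response difference of 0.93 ± 0.42 (adjusted p = 0.128, edgeR). ANT1 was lower in the mutant than in the wild type without acid, at −1.97 ± 0.34 (adjusted p = 0.000970, edgeR). With acid it was also lower, at −1.04 ± 0.28 (adjusted p = 0.0389, edgeR). PEX5, the import receptor for many peroxisomal matrix enzymes, was at 0.46 ± 0.20 in the mutant (adjusted p = 0.142, edgeR) and fell in the wild type, with a log2 change of −0.48 ± 0.18 (adjusted p = 0.0395, edgeR). Its response difference was 0.94 ± 0.27 (adjusted p = 0.0256, edgeR).

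Of the beta-oxidation genes downstream of activation (POX1 to POX6, MFE1 and POT1), 2 were called for the difference between the strains' responses. Over all 14 further genes 3 were called, where 25.5% of all genes were called for that difference. POX5, an acyl-CoA oxidase, had a response difference of −4.07 ± 0.43 (adjusted p = 7.97e-05, edgeR). For MFE1, the multifunctional enzyme, it was −1.29 ± 0.31 (adjusted p = 0.0117, edgeR). The acid change of POX5 was −0.22 ± 0.31 in the mutant (adjusted p = 0.681, edgeR) and 3.85 ± 0.31 in the wild type (adjusted p = 1.95e-06, edgeR). Without acid POX5 was higher in the mutant than in the wild type, by 2.04 ± 0.31 (adjusted p = 0.000468, edgeR). MFE1 rose with the acid by 0.87 ± 0.24 in the mutant (adjusted p = 0.0289, edgeR) and 2.16 ± 0.22 in the wild type (adjusted p = 7.77e-06, edgeR). The other acyl-CoA oxidases and the thiolase POT1 were not called for the response difference. Between the strains with acid, none of the 14 genes was higher and 5 were lower in the mutant, where 315 of all genes were called higher and 358, or 5.68%, lower. Without acid 1 of the 14 was higher and 5 were lower, where 22.8% of all genes were called higher and 15.3% lower. No test compared the ligase genes as a group with these genes.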

How the data were processed

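RNA-seq counts were deposited by the authors as whole numbers of reads per gene and library. Tools listed in the submitters' processing notes were HTSeq 0.11.0, STAR 2.7.9a, DESeq2 1.32.0, FastQC 0.11.7 and SAMtools 1.9; annotation, build and strand setting were not stated in the sources used here. A deposited table of scaled values was not used. No locus tag of the family matched the RefSeq table used here (0 of 10), so coordinates, lengths and sequences were not used, and per-length levels were not computed.

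Counts were tested in R 4.3.3 with edgeR 4.0.16: filterByExpr, TMM, 1 mean per group over 11 libraries, quasi-likelihood F test (robust), 5 comparisons, Benjamini-Hochberg adjusted p under 0.05 over 6301 genes. The standard error is the absolute log2 change over the square root of F. Log2 CPM for correlations used a prior count of 2. Alternatives included DESeq2 1.42.0. The smallest chi-square per degree of freedom between libraries of 1 group was 38.8, so each counted as 1 replicate. In simulated data 200 of 6301 genes were changed, fewer than the 673 to 3563 called per comparison in the real data. The adjusted p depends on that number, so the simulated shares need not hold for the real data. Simulated 2-fold changes were called in 4% of cases for the response difference, so a missing call there does not show a missing change. The share for 2-fold changes was 24% (mutant) and 55% (wild type) for the acid, and 26% (without acid) and 45% (with acid) between strains. For 4-fold changes it was 77% for the response difference and 93% to 96% for the other comparisons. False calls came to 5.81% for the response difference and 0.719% to 6.79% for the others. All 10 members are named. Members and gene lists were chosen with earlier results of these data known. Cultures came from separate colonies, per the labels' protocols.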

Additional observations from a re-analysis of the deposited data

Results flagged for a closer look

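Of the 10 genes, 2 had acid responses that differed between the strains by the test of that difference, where 25.5% of all genes were called. For AAL1 the response of the mutant minus that of the wild type was −1.13 on the log2 scale (adjusted p = 0.00846, edgeR), with CPM of 24.7 ± 2.23 in the HA-treated mutant, 19.6 ± 0.86 in the untreated mutant, 18.7 ± 3.29 in the HA-treated wild type and 6.79 ± 0.28 in the untreated wild type. For AAL3 it was −1.93 (adjusted p = 0.0464, edgeR), on 3 to 14 counts per library, and that call was lost in 15 of 17 alternatives. Groups of 3 or 2 libraries were not tested for single outlying libraries.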

How the results depend on the processing

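The rises of AAL6 and AAL7 in both strains, of AAL1 in the wild type, and the higher AAL1 and AAL10 of the untreated mutant were called in every alternative run. In no comparison did every same-numbered pair of libraries deviate together by the rule used (correlations of deviations from −0.455 to 0.366). Deviations from means of 2 or 3 libraries are tied to each other, so this check cannot exclude a pairing by number. With fits lacking 1 library, the number of the 10 genes called was 2 to 3 for the acid in the mutant, 3 to 5 in the wild type, 2 to 3 between strains without acid, 0 to 1 with acid (2 when only the compared groups were fitted) and 1 to 2 for the response difference. The response difference had 1 called gene, AAL1, with total counts only, no filter, the stricter filter (which removed AAL3), DESeq2 and a replicate block by title or by description number. The causes of these changes were not tested.

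All changes of sign were in values that were called neither with all libraries nor in that alternative. Over the fits lacking 1 library, AAL8 ran from −0.72 to 0.083 with acid in the mutant, −0.15 to 0.17 in the wild type, −0.056 to 0.75 between strains without acid, −0.14 to 0.18 with acid, and −0.73 to 0.079 for the response difference. AAL10 ran from −1.05 to 0.43 with acid in the mutant and −1.47 to 0.015 for the response difference. AAL2 ran from −0.83 to 0.34 between strains without acid, −0.11 to 0.14 with acid, and −0.37 to 0.81 for the response difference. Between strains, AAL4 ran from −0.38 to 0.047 without acid, and AAL5 from −0.10 to 0.93 and AAL6 from −0.25 to 0.35 with acid. For the response difference AAL7 ran from −0.055 to 0.42 and AAL9 from −0.89 to 0.11. The AAL8 change in the wild type, 0.00169 with all libraries, was −0.093 with total counts only, −0.00175 with the stricter filter, −0.0132 with only the groups compared, and −0.0292 and −0.00175 with the replicate block by title and description number. AAL2 between strains with acid was 0.12 with total counts only.

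Counts over all genes also moved. For the acid in the mutant 1112 genes were called, against 609 to 918 without 1 HA-treated mutant library. That count was 659 with only the groups compared, 739 with the block by title number and 1427 with DESeq2. Between strains with acid it was 673, against 134 to 768 without 1 library, 391 and 409 with the blocks by title and description number and 1044 with DESeq2. Between strains without acid it was 2402, against 1375 to 2255 without 1 library. AAL3 had 3 to 14 and AAL8 9 to 31 counts per library. Whether depth limited their calls was not tested.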
